A study of Felis catus with 15 samples.

Results

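The subject is a set of 9 genes for the supply, handling and breakdown of retinoic acid, the hormone made from vitamin A, measured in domestic cat epididymis, in its middle region, the corpus. The genes were listed by symbol and matched to NCBI gene identifiers, and 9 of 9 were present among the 38995 genes of the count table. The set is ALDH1A1 (gene 101090397), ALDH1A2 (101082916), ALDH1A3 (101081050), RBP4 (101094377), STRA6 (101089109), CRABP2 (101082543), DHRS3 (101080307), CYP26B1 (101100712) and RARB (101085742). All 9 also passed the filter on low counts, which kept 18038 genes. RNA-seq libraries came from explants (pieces of corpus tissue) kept in culture with extracellular vesicles from the caput, which lies upstream (5 libraries), from explants cultured without them (5 libraries), and from fresh corpus tissue (5 libraries). The labels mark both cultures D3 and fresh tissue D0, with no unit given. The labels do not say how old the animals were, how many there were or whether tissue was pooled, so p-values measure the spread between these libraries. Total counts were 17308832 to 27420218 with vesicles, 19308190 to 25454399 in culture and 17751507 to 24841100 in fresh tissue. Libraries are named by group and number ("culture 3"), and levels are CPM, the count of a gene scaled to the effective library size.

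As background, retinol travels in blood bound to the carrier RBP4 and enters cells through the membrane receptor STRA6. Inside the cell retinol is stored as an ester or oxidised to retinal, which DHRS3 can reduce back to retinol. The retinal dehydrogenases ALDH1A1, ALDH1A2 and ALDH1A3 oxidise retinal irreversibly to retinoic acid. CRABP2 carries retinoic acid to nuclear receptors such as RARB, and CYP26B1 oxidises it to inactive products. Several genes of the set are also known to be induced by retinoic acid itself in many cell types. In rodents, lack of vitamin A turns the simple epithelium of the epididymis into a keratinised squamous one.

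Culture 3 stood apart from the other cultures. The 13 mitochondrially encoded protein genes took 0.179% of its counts, against 6.23% to 7.48% in the other 4 cultures. Markers of principal cells, which absorb fluid and secrete proteins, summed to more in fresh tissue than in the cultures (2121 to 3473 CPM in vesicle-treated explants, 1000.2 to 3242 CPM in culture and 25012 to 33298 CPM in fresh tissue). These sums cannot check the tissue label, since all libraries are from the corpus and no other region was compared. All 9 tested principal cell markers were lower in both cultures than in fresh tissue. SLC9A3, too low to be tested, had 13 counts with vesicles, 0 in culture and 7 in fresh tissue. Basal cell markers summed to 1804 to 5225 CPM in vesicle-treated explants, 2101 to 6693 CPM in culture and 411 to 703 CPM in fresh tissue, with 7 of 7 higher in both. Mesothelial markers summed to 114 to 156 CPM in vesicle-treated explants, 95.1 to 138 CPM in culture and 12.8 to 22.2 CPM in fresh tissue, with 4 of 4 tested higher in both. CALB2, also untested, had 0 counts with vesicles, 5 in culture and 15 in fresh tissue. Fibroblast markers summed to 1085 to 11530.3 CPM in vesicle-treated explants, 1398 to 15934 CPM in culture and 613 to 2477 CPM in fresh tissue, with 4 of 10 higher and 1 lower in each culture. General epithelial markers summed to 2512 to 4872 CPM in vesicle-treated explants, 2528 to 7762 CPM in culture and 2386 to 2977 CPM in fresh tissue, with 3 of 10 higher and 2 lower with vesicles and 4 higher and 2 lower without. Endothelial markers summed to 356 to 785 CPM in vesicle-treated explants, 436 to 624 CPM in culture and 259 to 343 CPM in fresh tissue, with 4 of 8 higher in each, and smooth muscle markers to 685 to 4404 CPM in vesicle-treated explants, 1258 to 4533 CPM in culture and 647 to 1671 CPM in fresh tissue, with 3 of 8 higher in each. Clear cell markers summed to 66.3 to 116 CPM in vesicle-treated explants, 52.6 to 130.1 CPM in culture and 228 to 428 CPM in fresh tissue, with 1 of 8 higher in each culture, 2 lower with vesicles and 3 lower without. ATP6V1C2 carried much of this sum, with 47.0 ± 19.9 CPM with vesicles, 49.6 ± 20.5 in culture and 330 ± 85.6 in fresh tissue (SD, n = 5 each). CA2 went the other way, with 3828 counts with vesicles, 3108 in culture and 134 in fresh tissue. Both genes were named after their values were seen. Macrophage markers summed to 62.3 to 121 CPM in vesicle-treated explants, 69.5 to 159 CPM in culture and 33.1 to 65.4 CPM in fresh tissue, with 3 of 8 higher in each and 1 lower with vesicles. Adipocyte markers summed to 14.0 to 22.3 CPM in vesicle-treated explants, 15.1 to 18.2 CPM in culture and 10.8 to 18.1 CPM in fresh tissue, with 2 of 4 tested higher with vesicles and 1 higher without. The untested LEP had 5 counts with vesicles, 13 in culture and 0 in fresh tissue, and CIDEC had 11, 8 and 0. Sperm and germ cell markers summed to 5.04 to 9.06 CPM in vesicle-treated explants, 5.19 to 10.6 CPM in culture and 34.3 to 79.9 CPM in fresh tissue, with 6 of 6 tested lower in both and AKAP4 and CAPZA3 at 0 counts in culture. Beside these marker counts, 27.4% of all tested genes were higher and 25.5% lower with vesicles, and 28.7% and 25.6% without. In such bulk samples, fewer cells of a type and less RNA per cell cannot be told apart. The part of these marker shifts in the results below was not tested.

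Both cultures differed from fresh tissue in 8 of the 9 genes. In vesicle-treated explants against fresh tissue, ALDH1A3, STRA6, CRABP2, DHRS3 and RARB rose, ALDH1A1, ALDH1A2 and CYP26B1 fell, and RBP4 was not called (edgeR quasi-likelihood test; a call needs an adjusted p under 0.05, by Benjamini and Hochberg's method across the 18038 genes). In explants cultured without vesicles against fresh tissue, the same 5 genes rose and the same 3 fell. These comparisons share the fresh libraries. Large parts of the transcriptome changed as well: 52.9% of all tested genes were called with vesicles (27.4% higher and 25.5% lower) and 54.3% without (28.7% higher and 25.6% lower). The median log2 fold change of the 9 genes was 1.10 with vesicles and 1.57 without, beside 0.01 and 0.04 over all tested genes. Both medians are the value of RBP4, the gene not called, and do not show a common shift of the set. The called genes ran from -2.48 to 3.35 with vesicles and from -2.16 to 4.06 without. In 7 of 9 genes the 5 vesicle-treated explants did not overlap the 5 fresh tissues (background 49.2% of tested genes), and in 7 of 9 genes the 5 explants without vesicles did not (background 40.5%). Between vesicle-treated and untreated explants, 0 of the 9 genes were called.

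**Figure D1:**
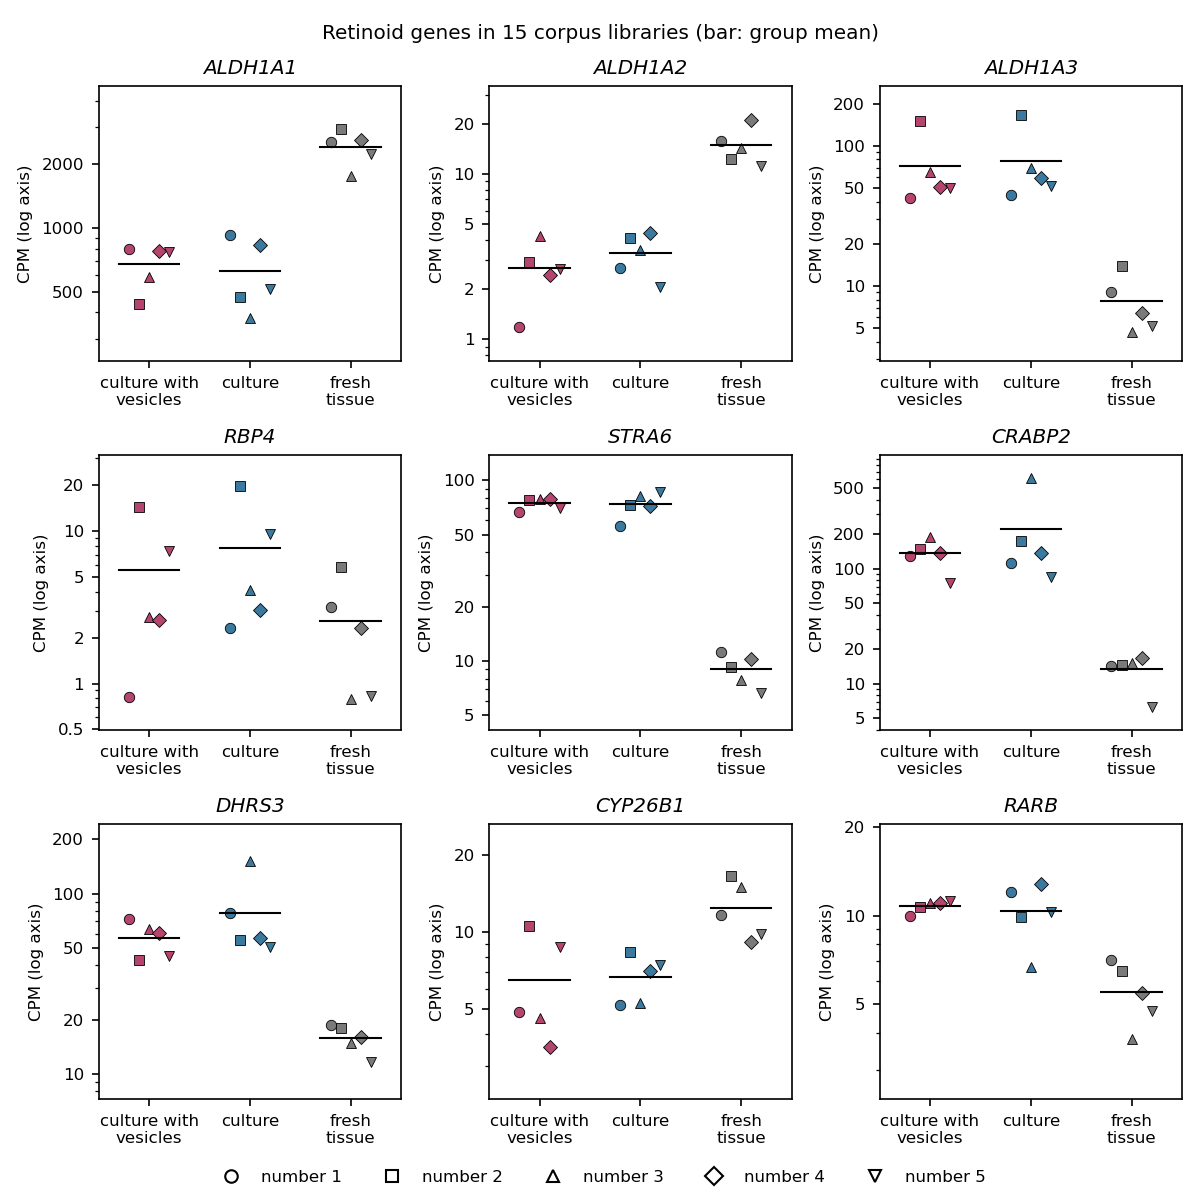
CPM of the 9 retinoid genes (log axes) in each of 15 libraries, by group, with marker shapes for library numbers 1 to 5 and bars for group means. ALDH1A1 and ALDH1A2 lie lower in every cultured library than in every fresh one, ALDH1A3, STRA6, CRABP2 and DHRS3 lie higher, and RBP4 overlaps between all groups.

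The retinal dehydrogenases, which carry out the last step of retinoic acid synthesis, split by gene. ALDH1A1 had 798, 438, 590.0, 782 and 767 CPM in vesicle-treated explants 1 to 5, 925, 474, 376, 829 and 517 CPM in explants 1 to 5 cultured without vesicles, and 2566, 2935, 1767, 2598 and 2245 CPM in fresh tissues 1 to 5. Every cultured library was below every fresh one, and the vesicle-treated and untreated explants overlapped. ALDH1A1 fell to 675 ± 157 CPM with vesicles and 624 ± 239 CPM without, against 2422 ± 440.3 CPM in fresh tissue (SD, n = 5 each), which is 3.59-fold lower with vesicles (edgeR, log2 fold change -1.84 ± 0.26, adjusted p = 2.60e-05; errors of fold changes are SE) and 3.88-fold lower without (log2 fold change -1.96 ± 0.26, adjusted p = 1.51e-05). ALDH1A2, which in mouse embryos supplies most retinoic acid, had 313 counts in all with vesicles, 373 in culture and 1579 in fresh tissue. ALDH1A2 had 1.18, 2.91, 4.21, 2.44 and 2.65 CPM in vesicle-treated explants 1 to 5, 2.68, 4.07, 3.48, 4.40 and 2.06 CPM in explants 1 to 5 cultured without vesicles, and 15.8, 12.3, 14.3, 21.3 and 11.1 CPM in fresh tissues 1 to 5. Again no cultured library reached the lowest fresh one. It fell 5.60-fold with vesicles (edgeR, log2 fold change -2.48 ± 0.32, adjusted p = 1.13e-05) and 4.48-fold without (log2 fold change -2.16 ± 0.31, adjusted p = 3.65e-05).

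ALDH1A3, the third retinal dehydrogenase, went the other way. ALDH1A3 had 42.2, 149.7, 65.4, 51.3 and 49.9 CPM in vesicle-treated explants 1 to 5, 44.4, 167, 69.9, 58.8 and 51.6 CPM in explants 1 to 5 cultured without vesicles, and 8.997, 14.0, 4.67, 6.41 and 5.21 CPM in fresh tissues 1 to 5. Every cultured library was above every fresh one, and the library numbered 2 was the highest in each of the 3 groups. ALDH1A3 rose 9.11-fold with vesicles (edgeR, log2 fold change 3.19 ± 0.47, adjusted p = 4.05e-05) and 9.96-fold without (log2 fold change 3.32 ± 0.47, adjusted p = 2.90e-05). No source used here says how reads matching several related genes were counted, so values of these 3 paralogs carry that uncertainty.

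The makeup of the retinal dehydrogenase counts is described here without a test. ALDH1A3 made up 5.01%, 25.4%, 9.92%, 6.14% and 6.09% of the summed ALDH1A1, ALDH1A2 and ALDH1A3 counts in vesicle-treated explants 1 to 5, 4.56%, 25.9%, 15.6%, 6.59% and 9.04% in explants 1 to 5 without vesicles, and 0.347%, 0.472%, 0.261%, 0.244% and 0.230% in fresh tissues 1 to 5. The smallest share in culture was thus several times the largest in fresh tissue, and explants numbered 2 had the largest share with and without vesicles. ALDH1A1 made up 89.1% ± 8.61 of these counts with vesicles, 87.2% ± 8.79 without and 99.1% ± 0.141 in fresh tissue (SD, n = 5 each). ALDH1A2 made up 0.377% ± 0.192 with vesicles, 0.506% ± 0.201 without and 0.627% ± 0.179 in fresh tissue. Transcript lengths were not used, so these shares compare groups and not the abundance of the genes. The summed counts are dominated by ALDH1A1, so its fall and the rise of ALDH1A3 both enter the share.

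**Figure D2:**
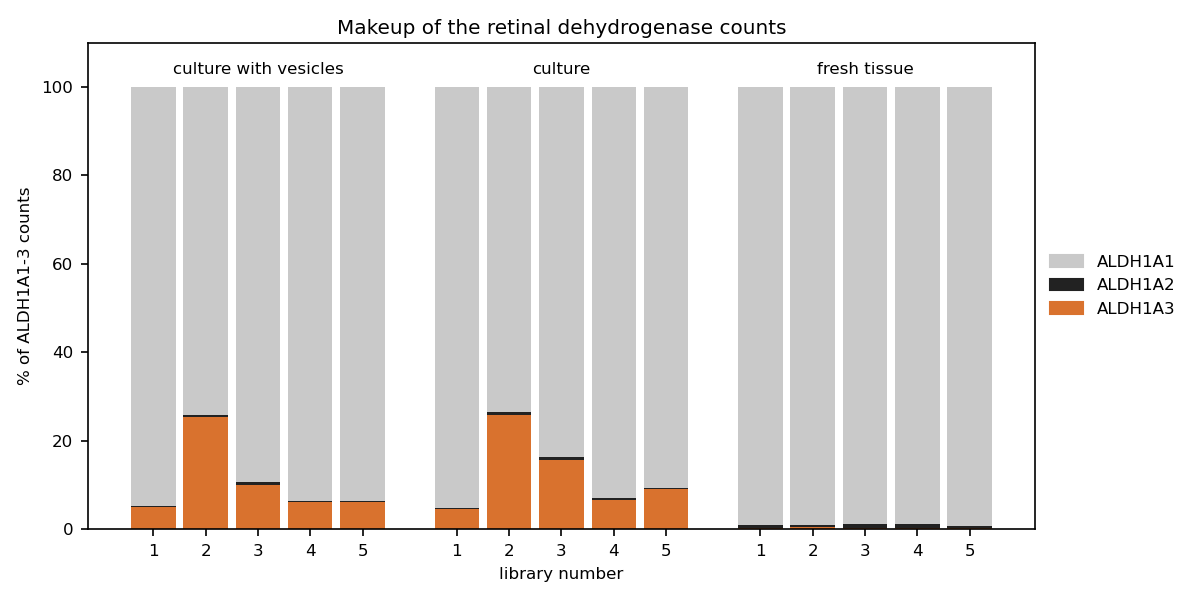
Share (%) of ALDH1A1, ALDH1A2 and ALDH1A3 in their summed counts, as stacked bars for each library number of the 3 groups. ALDH1A1 fills nearly the whole bar in fresh tissue, while ALDH1A3 takes 5.01% to 25.4% with vesicles and 4.56% to 25.9% in culture.

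Of the genes that bring retinol to and into cells, the receptor rose, while the carrier varied widely between libraries and was not called. STRA6 had 67.0, 78.2, 79.2, 79.2 and 70.2 CPM in vesicle-treated explants 1 to 5, 55.8, 73.4, 82.0, 71.9 and 86.3 CPM in explants 1 to 5 cultured without vesicles, and 11.2, 9.27, 7.83, 10.3 and 6.65 CPM in fresh tissues 1 to 5. The groups of cultured libraries were tight and lay far above all 5 fresh ones. STRA6 rose 8.25-fold with vesicles (edgeR, log2 fold change 3.04 ± 0.16, adjusted p = 4.71e-09) and 8.15-fold without (log2 fold change 3.03 ± 0.16, adjusted p = 4.63e-09). These were the smallest adjusted p-values of the 9 genes in both comparisons. The carrier RBP4 had 0.821, 14.4, 2.75, 2.60 and 7.38 CPM in vesicle-treated explants 1 to 5, 2.32, 19.7, 4.101, 3.04 and 9.54 CPM in explants 1 to 5 cultured without vesicles, and 3.16, 5.86, 0.792, 2.31 and 0.825 CPM in fresh tissues 1 to 5. The groups overlapped, and within a group the highest library exceeded the lowest by 17.5 times with vesicles, 8.50 times without and 7.40 times in fresh tissue. RBP4 was higher than in the fresh library of the same number in 4 of 5 vesicle-treated explants (edgeR, log2 fold change 1.10 ± 0.77, adjusted p = 0.249) and in 4 of 5 explants without vesicles (log2 fold change 1.57 ± 0.78, adjusted p = 0.100). Without fresh tissue 2, where it was highest among fresh libraries, RBP4 passed the threshold in culture without vesicles (log2 fold change 2.13, adjusted p = 0.0467). Other choices lowered it: without culture 2 it was 0.87 (adjusted p = 0.348), and without vesicle-treated explant 2 the value with vesicles was 0.35 (adjusted p = 0.724). With limma-voom the log2 fold change was 0.42 with vesicles and 1.00 without (adjusted p = 0.659 and 0.309). DESeq2 gave 1.05 with vesicles and 1.54 without (adjusted p = 0.216 and 0.0581). With the library number as a block, edgeR gave 0.74 with vesicles and 1.26 without (adjusted p = 0.282 and 0.0709).

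CRABP2, which binds retinoic acid in the cytosol and delivers it to its receptors, rose. CRABP2 had 130.2, 149, 190.3, 136 and 75.2 CPM in vesicle-treated explants 1 to 5, 113, 174, 610.4, 137 and 84.4 CPM in explants 1 to 5 cultured without vesicles, and 14.4, 14.5, 15.1, 16.7 and 6.34 CPM in fresh tissues 1 to 5. Every cultured library exceeded all fresh ones, with culture 3 far above the other cultures and fresh tissue 5 lowest of all. CRABP2 rose 10.2-fold with vesicles (edgeR, log2 fold change 3.35 ± 0.50, adjusted p = 5.13e-05) and 16.7-fold without (log2 fold change 4.06 ± 0.52, adjusted p = 1.09e-05). Leaving out culture 3 gave, for the comparison without vesicles, 3.25 (adjusted p = 9.26e-07).

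DHRS3, the retinal reductase that draws retinal away from retinoic acid synthesis, also rose. DHRS3 had 71.9, 42.6, 63.9, 60.6 and 45.1 CPM in vesicle-treated explants 1 to 5, 77.5, 55.3, 152, 56.9 and 50.5 CPM in explants 1 to 5 cultured without vesicles, and 18.6, 17.9, 14.7, 16.1 and 11.6 CPM in fresh tissues 1 to 5. The cultured and fresh libraries did not overlap, and culture 3 again had the highest value. DHRS3 rose 3.60-fold with vesicles (edgeR, log2 fold change 1.85 ± 0.28, adjusted p = 6.24e-05) and 4.96-fold without (log2 fold change 2.31 ± 0.29, adjusted p = 8.59e-06).

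CYP26B1, the retinoic acid hydroxylase of the set, fell by a smaller amount. CYP26B1 had 4.89, 10.5, 4.61, 3.58 and 8.79 CPM in vesicle-treated explants 1 to 5, 5.20, 8.37, 5.29, 7.08 and 7.43 CPM in explants 1 to 5 cultured without vesicles, and 11.7, 16.5, 15.1, 9.12 and 9.84 CPM in fresh tissues 1 to 5. The untreated explants lay below all fresh tissues, whereas vesicle-treated explant 2 overlapped fresh tissues 4 and 5. CYP26B1 was 1.92-fold lower with vesicles (edgeR, log2 fold change -0.94 ± 0.29, adjusted p = 0.0135) and 1.87-fold lower without (log2 fold change -0.90 ± 0.29, adjusted p = 0.0170). These were the largest adjusted p-values among the 8 called genes in each comparison. The other hydroxylases of its family were barely detected: CYP26A1 had 0 counts with vesicles, 0 in culture and 4 in fresh tissue, and CYP26C1 had 0 counts with vesicles, 4 in culture and 0 in fresh tissue, each over 5 libraries. A count of 0 over a group allows up to 3 counts, or 0.0252 CPM with vesicles, 0.0271 CPM in culture and 0.0280 CPM in fresh tissue, for counting error only.

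RARB, a nuclear receptor for retinoic acid and itself one of its target genes, rose modestly. RARB had 9.99, 10.7, 11.01, 11.02 and 11.2 CPM in vesicle-treated explants 1 to 5, 12.1, 9.87, 6.70, 12.8 and 10.3 CPM in explants 1 to 5 cultured without vesicles, and 7.07, 6.50, 3.83, 5.48 and 4.74 CPM in fresh tissues 1 to 5. The vesicle-treated explants were nearly equal to each other and above all fresh tissues, while culture 3 alone of the untreated explants overlapped fresh tissue. RARB was 1.95-fold higher with vesicles (edgeR, log2 fold change 0.96 ± 0.20, adjusted p = 0.000943) and 1.87-fold higher without (log2 fold change 0.90 ± 0.20, adjusted p = 0.00151), and higher than in the fresh library of the same number in 5 of 5 explants in both.

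**Figure D3:**
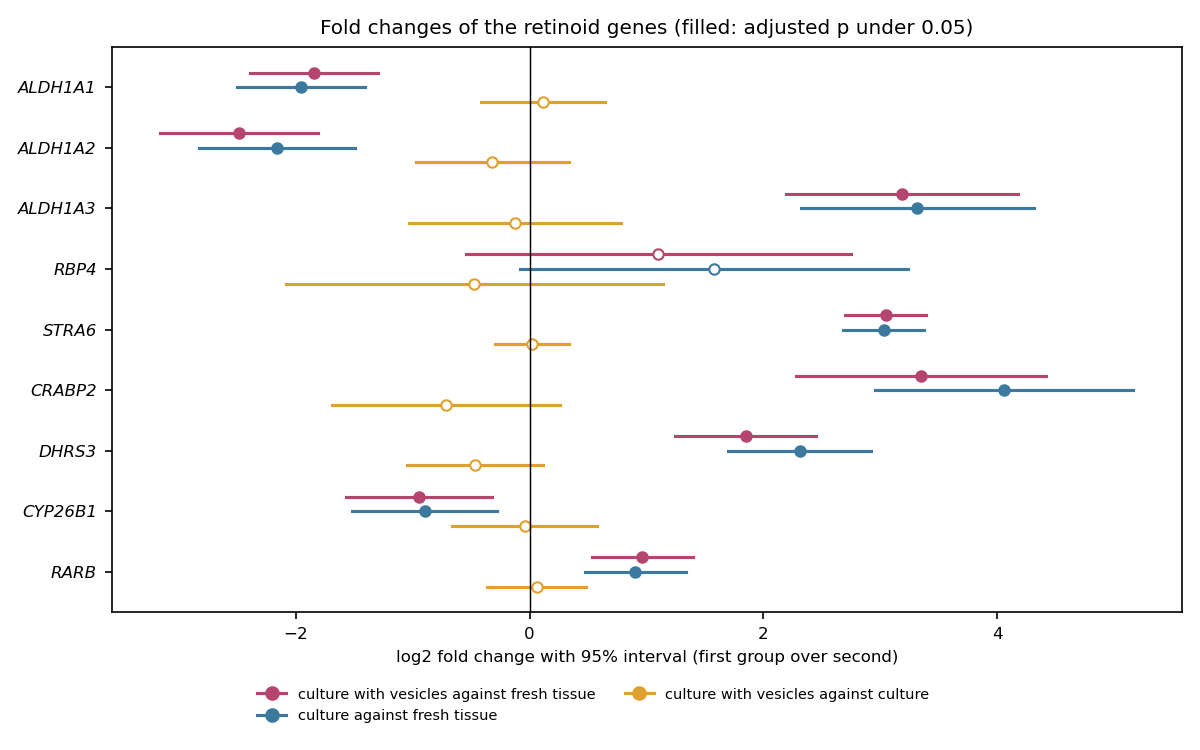
Log2 fold changes (points) with 95% intervals (lines) of the 9 genes in 3 comparisons, first group over second. For 8 genes both comparisons with fresh tissue exclude 0, while the intervals of vesicle-treated against untreated explants include 0 for all 9, widest for RBP4 and narrowest for STRA6.

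The effect of the vesicles is addressed by vesicle-treated against untreated explants, and no gene of the retinoid set was called there. Over all genes edgeR called 0 of 18038 (0.00%), with 183 at an unadjusted p under 0.05. DESeq2 and limma-voom also called 0, with 269 and 237 at an unadjusted p under 0.05. Of the 9 retinoid genes, 0 were under 0.05 before adjustment with any of these tools, and 0 had groups that did not overlap (background 0.0832%). For STRA6 the ratio of vesicle-treated to untreated explants had a 95% interval of 0.813 to 1.26, the narrowest of the set. The interval was 0.777 to 1.40 for RARB, 0.748 to 1.56 for ALDH1A1, 0.630 to 1.49 for CYP26B1 and 0.509 to 1.26 for ALDH1A2. For DHRS3 it was 0.484 to 1.08. It was wider for ALDH1A3 (0.488 to 1.71), CRABP2 (0.310 to 1.20) and RBP4 (0.235 to 2.20). Ratios inside these intervals remain possible, but the intervals are not limits of detection. They come from the fit that ignores library numbers. When the library number was added as a block, the interval was 0.685 to 1.24 for ALDH1A3 and 0.320 to 1.52 for RBP4. Both were narrower than without the block, as were those of the other genes except STRA6 (0.788 to 1.29).

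By library number, ALDH1A3 and RBP4 were lower with vesicles than in the untreated explant of the same number in 5 of 5 pairs. The vesicle-treated to untreated ratios were 0.872 to 0.968 for ALDH1A3 and 0.353 to 0.855 for RBP4. Among all tested genes 2.59% were lower and 2.79% higher in 5 of 5 pairs. With the library number as a block, ALDH1A3 had a log2 fold change of -0.12 ± 0.20 (edgeR, unadjusted p = 0.567, adjusted p = 0.967) and RBP4 one of -0.52 ± 0.51 (unadjusted p = 0.333, adjusted p = 0.967). CRABP2 and DHRS3 were lower with vesicles in 4 of 5 pairs each, with the lowest ratios, 0.312 and 0.420, in the pair that holds culture 3.

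Library number 2 stood out in RBP4, ALDH1A3 and the fibroblast markers alike. The 10 fibroblast markers summed to 2025, 11530.3, 2562, 1085 and 3744 CPM in vesicle-treated explants 1 to 5, 3472, 15934, 9003, 1398 and 2899 CPM in explants 1 to 5 without vesicles, and 1501, 2477, 956, 613 and 825 CPM in fresh tissues 1 to 5. The library numbered 2 had the highest fibroblast sum, the highest RBP4 and the highest ALDH1A3 level in all 3 groups. It also had the highest CYP26B1 level in each, at 10.5 CPM with vesicles, 8.37 CPM without and 16.5 CPM in fresh tissue. Smooth muscle markers were likewise highest in the libraries numbered 2, at 4404 CPM with vesicles, 4533 CPM without and 1671 CPM in fresh tissue. The part of these markers in the levels of RBP4, ALDH1A3 and CYP26B1 was not tested. No fibroblast marker was at 0 in any group.

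**Figure D4:**
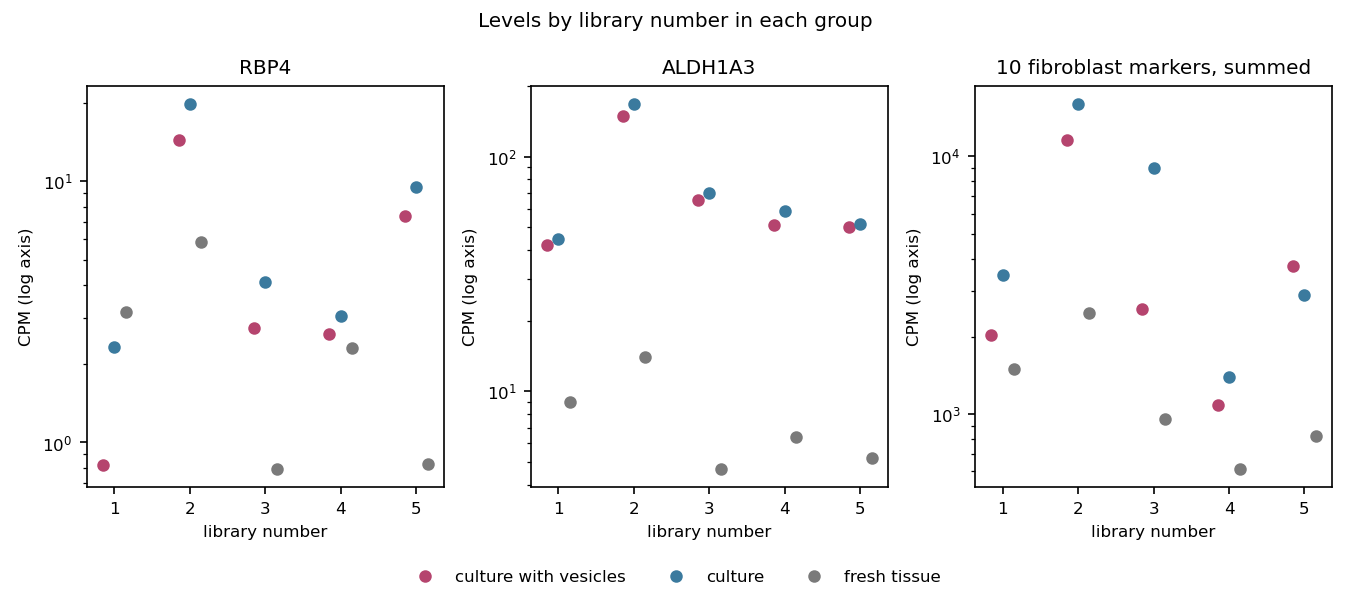
CPM (log axes) of RBP4, ALDH1A3 and the sum of 10 fibroblast markers by library number, with a colour for each group. The libraries numbered 2 lie highest in each panel and group.

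Culture 3 carried extreme values of several members. It had the highest CRABP2 (610.4 CPM) and DHRS3 (152 CPM) of all 15 libraries, and the lowest ALDH1A1 (376 CPM). Its RARB (6.70 CPM) was the lowest among cultured libraries. In the same library basal cell markers summed to 6693 CPM and general epithelial markers to 7762 CPM, the highest of all libraries, and principal cell markers to 1000.2 CPM, the lowest. Without culture 3, 8 of 9 genes were called in culture against fresh tissue (edgeR). DHRS3 then had a log2 fold change of 1.93 (adjusted p = 1.11e-06), against 2.31 with it. Likewise RARB had 1.03 (adjusted p = 0.000131), against 0.90, and ALDH1A1 -1.81 (adjusted p = 2.43e-05), against -1.96. Between vesicle-treated and untreated explants, leaving it out gave CRABP2 a log2 fold change of 0.10, against -0.71 with it, and DHRS3 one of -0.08, against -0.46. Neither was called either way.

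Likeness of pattern was described by Pearson r of log2 CPM over all 15 libraries, among 12365 genes with a symbol and a mean log2 CPM of at least 1, and again after removing the group means. The 3 genes with the highest r are named for each, with r in brackets, except 2 of them for CYP26B1 within groups. Nearest to ALDH1A1 were TESK2 (0.980), SLC44A4 (0.980) and SLC24A3 (0.976), and, with group means removed, ACOX2 (0.919), SLC44A4 (0.900) and NPNT (0.898). For ALDH1A2 they were HSD17B6 (0.953), PLXNA3 (0.952) and CIT (0.951), and within groups PYROXD2 (0.719), MMP24 (0.711) and CE1H17orf80 (0.708). ALDH1A3 was most like IGFBP4 (0.980), SEPTIN7 (0.980) and MCUB (0.979), and, within groups, CLEC3B (0.961), CHRDL1 (0.949) and IL11RA (0.903). RBP4 was most like SRPX (0.934), IL34 (0.904) and AEBP1 (0.893), and within groups SRPX (0.931), ADAMTS6 (0.931) and MMP19 (0.924). For STRA6 the nearest were TPM4 (0.996), FBLIM1 (0.994) and MSN (0.992), and within groups VILL (0.873), TPM4 (0.824) and CCN1 (0.821). CRABP2 was nearest to SLC35E4 (0.988), IMPDH1 (0.987) and AOPEP (0.984), and within groups CHID1 (0.959), TRAPPC6A (0.953) and TMEM80 (0.948). For DHRS3 they were CD151 (0.984), SH3GLB2 (0.983) and SH3BP1 (0.982), and within groups PITPNM3 (0.969), COQ8A (0.952) and GATD1 (0.941). CYP26B1 lay nearest to CDKL1 (0.926), GAB2 (0.915) and JAM2 (0.895), and within groups MXRA5 (0.855) and MAP1B (0.853). Finally, RARB was most like NPAS2 (0.962), ANO6 (0.959) and MECOM (0.956), and within groups PTPRG (0.926), ANO6 (0.868) and NPAS2 (0.862). Over all 15 libraries r mostly follows the contrast of culture with fresh tissue, which the libraries of a group share. As the highest of many candidates, these values are a description and were not tested.

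Among all pairs of the 9 genes, those that varied most alike within groups were ALDH1A3 with RBP4 (r = 0.821 over 15 libraries with group means removed), CRABP2 with DHRS3 (0.801) and ALDH1A1 with RARB (0.719), described without a test. In the last pair, culture 3 was lowest among cultures for both genes. For CRABP2 with DHRS3 culture 3 was highest for both.

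Other genes of the pathway were taken from 5 lists with 95 entries, of which 85 matched a gene and 70 were tested. Beside the list counts below, 27.4% of all tested genes were higher and 25.5% lower with vesicles, and 28.7% and 25.6% without. Whether any list departs from these shares was not tested. Against fresh tissue, the uptake and storage list had 5 of 11 tested genes higher and 4 lower with vesicles, and 5 higher and 4 lower without (median log2 fold change 0.04 and -0.07). SCARB1, a lipoprotein receptor that also takes up carotenoids, rose (log2 fold change 3.06 ± 0.16 with vesicles and 3.01 ± 0.16 without, edgeR adjusted p = 4.71e-09 and 4.63e-09), as did DGAT1, an acyltransferase that can esterify retinol (log2 fold change 1.25 ± 0.20 with vesicles and 1.37 ± 0.20 without). BCO1, which cleaves beta-carotene to retinal, fell (log2 fold change -1.14 ± 0.31 with vesicles and -1.44 ± 0.31 without, adjusted p = 0.00610 and 0.00123). LRAT, the main enzyme of retinol esterification, named after its values were seen, had 124 ± 66.0 CPM in vesicle-treated explants, 112 ± 64.1 CPM in culture and 304 ± 77.3 CPM in fresh tissue (SD, n = 5 each) and fell (log2 fold change -1.30 ± 0.41 with vesicles and -1.44 ± 0.41 without, adjusted p = 0.0144 and 0.00758).

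Enzymes that interconvert retinol and retinal had 6 of 15 tested genes higher and 5 lower with vesicles, and 5 higher and 5 lower without (median log2 fold change 0.29 and 0.20). DHRS9, a retinol dehydrogenase, had 36.0 ± 33.2 CPM in vesicle-treated explants, 37.1 ± 42.0 CPM in culture and 0.135 ± 0.189 CPM in fresh tissue (SD, n = 5 each), with 16 counts over the 5 fresh libraries, and rose (log2 fold change 7.89 ± 1.10 with vesicles and 7.94 ± 1.10 without, edgeR adjusted p = 2.60e-05 and 2.46e-05). Its values were 8.71 and 8.75 without fresh tissue 1, 7.19 with vesicles without vesicle-treated explant 4, and 6.95 in culture without culture 4. The dehydrogenase relatives SDR16C5 (log2 fold change 1.28 ± 0.26 with vesicles and 1.26 ± 0.26 without, adjusted p = 0.000618 and 0.000705) and DHRS7 (log2 fold change 0.97 ± 0.23 with vesicles and 1.16 ± 0.23 without, adjusted p = 0.00208 and 0.000520) rose too. RDH16 (log2 fold change -1.80 ± 0.37 with vesicles and -1.19 ± 0.36 without, adjusted p = 0.000732 and 0.0113) and RDH14 (log2 fold change -0.95 ± 0.26 with vesicles and -1.17 ± 0.26 without, adjusted p = 0.00653 and 0.00161) fell. RDH10, which in mice makes most of the retinal for retinoic acid synthesis and was named after its values were seen, rose (log2 fold change 0.99 ± 0.29 with vesicles and 0.98 ± 0.29 without, adjusted p = 0.00998 and 0.00971).

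The list of other binding proteins and oxidases for retinoids had 2 of 6 tested genes higher and 0 lower with vesicles, and 2 higher and 0 lower without (median log2 fold change 1.30 and 1.79). The other 4 tested genes, among them those that set these medians, were not called in either comparison. FABP5, a lipid carrier that can take retinoic acid to other nuclear receptors, had 107 ± 62.0 CPM in vesicle-treated explants, 84.6 ± 26.1 CPM in culture and 10.1 ± 3.80 CPM in fresh tissue (SD, n = 5 each) and rose (log2 fold change 3.40 ± 0.38 with vesicles and 3.06 ± 0.37 without, edgeR adjusted p = 2.89e-06 and 7.19e-06). CYP27C1, which in human and fish converts vitamin A1 to vitamin A2, rose as well (log2 fold change 3.00 ± 0.47 with vesicles and 2.82 ± 0.46 without, adjusted p = 7.18e-05 and 0.000116). CRABP1, the relative of CRABP2, was not called (log2 fold change -1.03 ± 0.74 with vesicles and -0.08 ± 0.73 without, adjusted p = 0.262 and 0.937, named after its values were seen).

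Receptors and cofactors had 6 of 17 tested genes higher and 7 lower with vesicles, and 5 higher and 5 lower without (median log2 fold change -0.19 and -0.25). The receptors RARA (58.3 ± 10.3 CPM in vesicle-treated explants, 59.5 ± 10.8 CPM in culture and 10.7 ± 1.81 CPM in fresh tissue, SD, n = 5 each) and RARG rose (log2 fold change 2.44 ± 0.17 with vesicles and 2.47 ± 0.17 without, edgeR adjusted p = 3.87e-08 and 3.42e-08; for RARG log2 fold change 1.21 ± 0.18 with vesicles and 1.23 ± 0.18 without, adjusted p = 5.40e-05 and 4.70e-05). Their partner RXRA, named after its values were seen, rose (log2 fold change 1.18 ± 0.28 with vesicles and 1.40 ± 0.28 without, adjusted p = 0.00202 and 0.000551). RXRG fell, with 17 counts over 5 libraries with vesicles, 3 in culture and 152 in fresh tissue. The scaled RXRG count was 52.3 times lower in culture than in fresh tissue (exact 95% interval 17.5 to 256, counting error only). All 3 of these culture counts came from culture 1, and the other 4 cultures had 0. The fitted log2 fold change in culture, which depends on the prior count, was -5.46 with culture 1 and -7.97 without it (edgeR, adjusted p = 9.54e-05 and 0.000118). The fitted log2 fold change with vesicles was -3.30 ± 0.72 (adjusted p = 0.00130). The coactivator NCOA1 fell (log2 fold change -1.21 ± 0.16 with vesicles and -1.30 ± 0.16 without, adjusted p = 1.23e-05 and 6.68e-06).

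Genes known to respond to retinoic acid in other cells had 8 of 21 tested genes higher and 1 lower with vesicles, and 8 higher and 2 lower without (median log2 fold change 0.43 and 0.32). Of the 21 genes, 12 were not called with vesicles and 11 without, while 52.9% of all tested genes were called with vesicles and 54.3% without. SOX9 (log2 fold change 3.41 ± 0.33 with vesicles and 3.45 ± 0.33 without), GPRC5A (log2 fold change 4.34 ± 0.46 with vesicles and 4.34 ± 0.46 without), RAI14 (log2 fold change 3.05 ± 0.34 with vesicles and 2.87 ± 0.34 without) and the laminin chain LAMB1 (log2 fold change 1.87 ± 0.26 with vesicles and 2.05 ± 0.26 without) rose (edgeR, largest adjusted p = 2.34e-05). TGM2, a transglutaminase named after its values were seen, rose (log2 fold change 1.61 ± 0.28 with vesicles and 1.70 ± 0.28 without, adjusted p = 0.000212 and 0.000129). ZBTB16, a transcription factor named after its values were seen, fell in both (log2 fold change -2.03 ± 0.32 with vesicles and -1.56 ± 0.32 without, adjusted p = 8.46e-05 and 0.000682). Genes of this list also respond to other signals. Between vesicle-treated and untreated explants, 0 of the 70 tested pathway genes were called by edgeR. Without culture 3, the counts of called genes in the 5 lists stayed within 1.5 times.

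**Figure D5:**
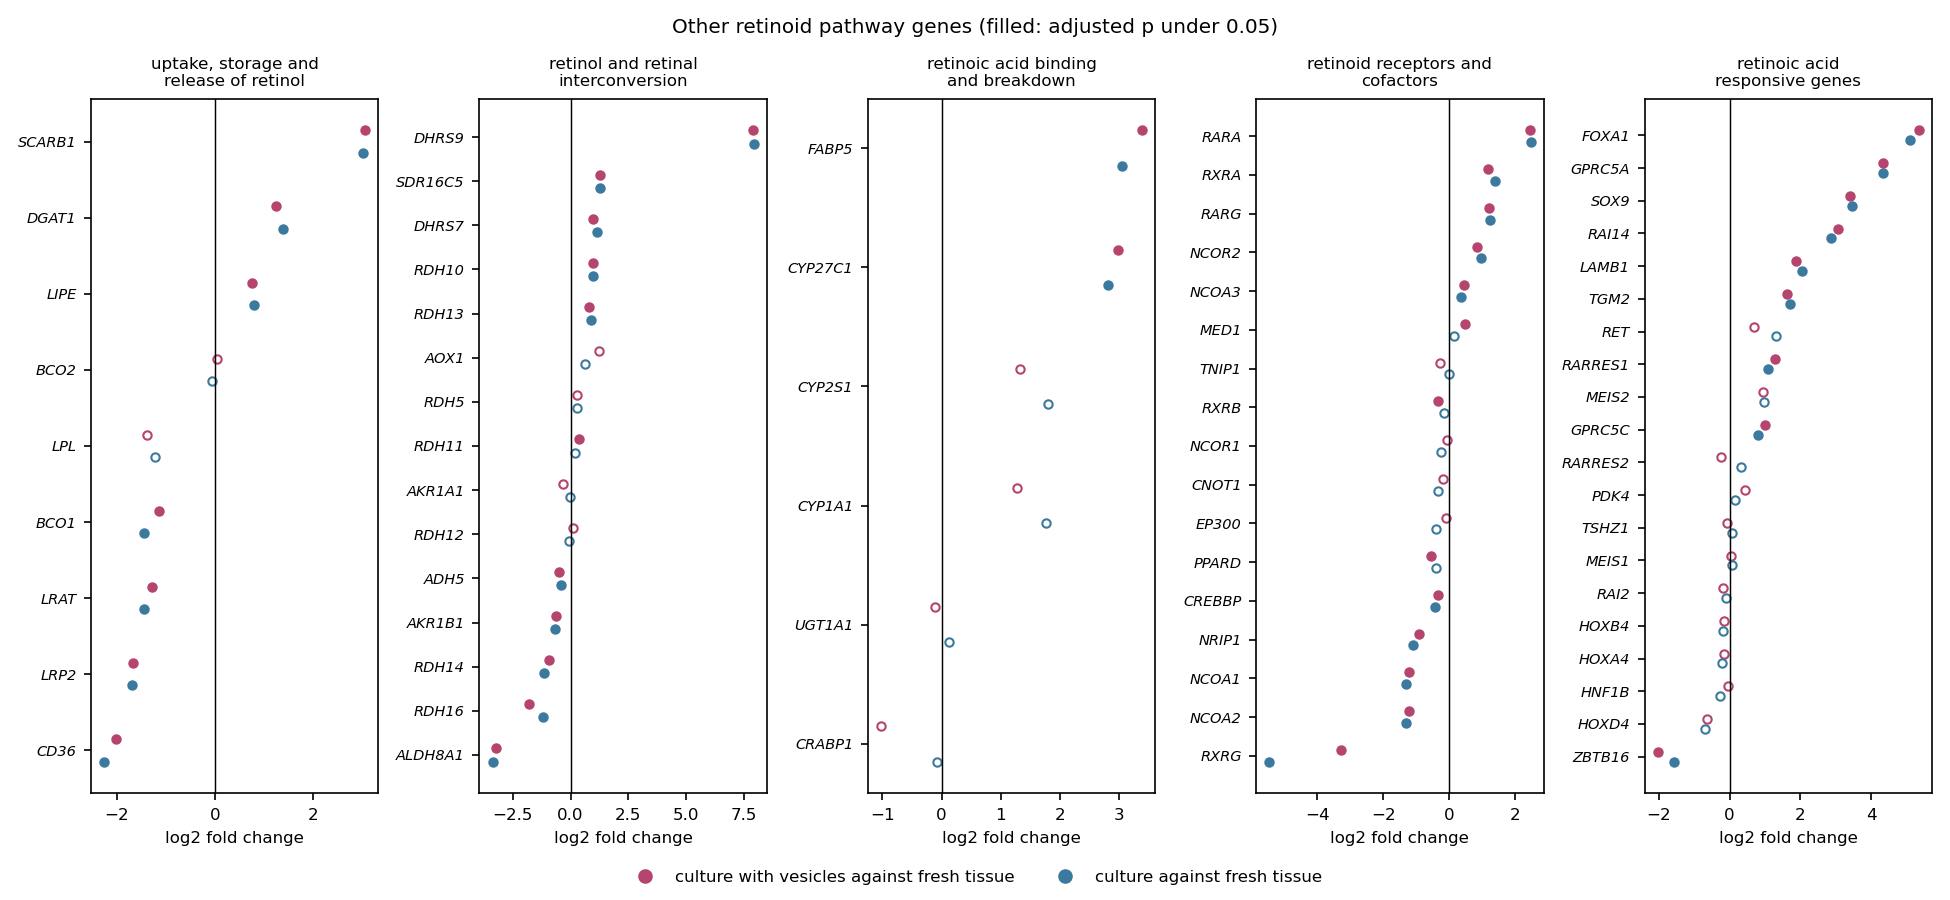
Log2 fold changes (first group over second) of tested genes of 5 retinoid pathway lists in vesicle-treated explants (above) and untreated explants (below) against fresh tissue, with filled points for called genes. Each list holds genes on both sides of 0, with DHRS9, FOXA1 and GPRC5A farthest to the right and RXRG farthest to the left.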

How the data were processed

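Libraries were made from total RNA with a stranded mRNA kit, per the labels' protocols. The authors deposited 1 table of raw counts per gene for 15 libraries. StringTie 2.1.3b, Bowtie2 2.3.4.1, HISAT2 2.1.0 and Trimmomatic 0.38 are listed in the submitters' processing notes without their roles. The sources used here name no counting program, strand setting, annotation or build. Symbols for all 38995 identifiers came from RefSeq (F.catus_Fca126_mat1.0), used for names only. No sequence or transcript length was used. Some genes of the lists are not reported here by name or in the plot.

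Genes were filtered with edgeR's filterByExpr (minimum count 10, minimum total 15), which left out 20957. Library sizes were adjusted with TMM factors and the counts fitted in 1 quasi-likelihood model with the group as the only term (edgeR 4.0.16, R 4.3.3, 12 residual degrees of freedom, 2-sided). Intervals are the fold change plus or minus the SE times the t quantile. Log2 CPM used a prior count of 2. The code was tested on simulated data. Members and lists were chosen with earlier results of these data known. Named were all 9 members, per list and comparison up to 4 called genes with the smallest adjusted p, and per member the 3 most alike genes. Genes outside this rule are marked, and FOXA1 and ZBTB16 are named for their extreme values.

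Same-numbered libraries deviated together: r of deviations from group means across genes was 0.181 to 0.602 between vesicle-treated and untreated explants and 0.242 to 0.362 between vesicle-treated explants and fresh tissue. Their pairing comes from these correlations, since the labels do not explain the numbers. Alternatives were DESeq2 1.42.0, limma-voom (limma 3.58.1), other scalings and filters, fits of 2 groups, the replicate block and each library left out.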

Additional observations from a re-analysis of the deposited data

Results flagged for a closer look

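CRABP2 in fresh tissue 5 lay apart from the other fresh libraries, at 2.68 log2 CPM (6.34 CPM) against 3.86 to 4.07 log2 CPM in the other 4. Its gap to the nearest library, divided by the range of the group, was 0.847, above Dixon's 95% critical value for 5 libraries. It was 1 of 27 sets of 5 libraries examined (9 genes in 3 groups), and chance gives about 1 in 20.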

How the results depend on the processing

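The number of retinoid genes called was 8 of 9 in both comparisons with fresh tissue and 0 between the cultures under all 23 alternatives, except 9 in culture against fresh tissue without fresh tissue 2, which added RBP4. Genes called over the whole table were 8873 to 11789 with vesicles against fresh tissue, 8671 to 11036 for culture against fresh tissue and 0 between the cultures under the alternatives that keep all libraries of the groups compared (main values 9549, 9786 and 0), and 8833 to 11658, 9039 to 11090 and 0 with 1 library left out. With the replicate block they were 10283, 10438 and 0, and the block changed no call of a retinoid gene. For culture against fresh tissue, same-numbered libraries correlated at 0.198 to 0.344 for numbers 1, 2, 4 and 5, each best with its own number. Number 3, which holds culture 3, had 0.0326 and did not match best, so pairing there is shown for 4 of 5 numbers. Of 621 values of the 9 genes under alternatives, 620 kept their side of the threshold, and no called value changed sign. Of the pathway genes, added after seeing the data, only some were checked. These were up to 4 called genes per list and comparison with the smallest adjusted p, and a few further genes. For them 1714 values kept their side and 4 lost it, all of RARRES1 in culture against fresh tissue, and the cause was not tested. Genes picked for small p-values keep a call more easily. Other pathway genes, among them CRABP1, ZBTB16 and FOXA1, were not checked. List counts, added after seeing the data, stayed within 1.5 times in 1079 cases and moved further in 25, all of them cell type marker lists; the cause was not tested. CYP26A1 and CYP26C1 had too few counts to be tested.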
